A study of Mus musculus with 8 samples.

Results

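Autophagy wraps parts of the cytoplasm in a membrane and delivers them to lysosomes, and 2 ubiquitin-like conjugation systems build and mark that membrane. The genes described here are 10 members of these systems: Atg12, Atg5, Atg7, Atg3, Atg10, Atg16l1, Map1lc3a, Map1lc3b, Gabarap and Gabarapl1. They were chosen by name as the ubiquitin-like conjugation genes of autophagy, by a rule that uses no measured value. The choice was made with earlier results of these data known. They are 10 of the 53465 genes in the count table. Each was found by its Ensembl identifier.

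PolyA RNA was sequenced from Ba/F3, a mouse line of immortalised pro-B cells with C3H strain background that is known to depend on interleukin-3 for growth. The transformed group had 5 libraries, numbered 4 to 8, from cells with the genotype U2AF35-S34F. The parental group had 3 libraries, numbered 1 to 3, of cells with U2AF35-WT. The title says that the series looked for functional variants in cells that express the S34F form. U2AF35 is the product of U2af1 and helps the splicing machinery find the 3′ splice site. The sources used here do not say whether the transformed libraries come from 1 clone or from separate cultures, how the S34F form was introduced, or whether interleukin-3 was in the medium. P-values therefore measure only the spread between these libraries, which may be technical.

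In the first system, the ubiquitin-like protein ATG12 is activated by ATG7, passed to ATG10 and covalently joined to ATG5. The ATG12-ATG5 conjugate binds ATG16L1 and promotes the last step of the second system, in which proteins of the ATG8 family (the LC3 and GABARAP proteins) are activated by the same ATG7, passed to ATG3 and joined to the lipid phosphatidylethanolamine in the growing membrane. ATG4 proteases first trim ATG8 proteins to expose a glycine at the end, and can also take them off the lipid. Earlier work on Ba/F3 cells with U2AF35(S34F) connected the mutant to the choice of the 3′ end of Atg7 transcripts. A count per gene does not show which 3′ end was used.

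The glycine that becomes the point of attachment can be read in the coding sequence of each ATG8 gene. The last 45 coding bases of the 4 members and of Gabarapl2, the other ATG8 gene listed as a partner, are printed to show how far upstream of the stop codon that glycine lies and how unlike the genes are at the sequence level. The sequences are from GENCODE transcripts on GRCm38, and the capitals mark the glycine codon.
Map1lc3a: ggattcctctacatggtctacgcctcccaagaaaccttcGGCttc
Map1lc3b: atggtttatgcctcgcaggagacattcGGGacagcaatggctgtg
Gabarap: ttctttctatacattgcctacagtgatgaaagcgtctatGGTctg
Gabarapl1: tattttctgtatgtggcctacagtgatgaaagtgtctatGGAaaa
Gabarapl2: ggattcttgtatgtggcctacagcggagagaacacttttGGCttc
Map1lc3b has 5 codons after the glycine, and the other 4 genes have 1. The coding sequences of Map1lc3a and Map1lc3b were 77.3% identical, those of Gabarap and Gabarapl1 were 74.6% identical, and the other pairs fell between 57.7% and 64.9%. The longest stretch of identical bases shared by the transcripts of any pair was 17, and no copy of at least 90% identity over 200 bases was found for the members other than Gabarapl1. The Gabarapl1 match is the antisense transcript 1700101I11Rik, which overlaps 28.3% of its exon bases and held at most 0.54% of its counts. The sources do not state whether counting used strand, so reads of those partners cannot be told apart.

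Libraries held 36122062 (transformed 7) to 50305573 (parental 1) counts. For U2af1 the mean was 131 ± 24.4 CPM (counts scaled to library size) in the 5 transformed libraries and 91.7 ± 6.47 CPM in the 3 parental ones, and edgeR gave a log2 fold change of 0.51 (adjusted p = 0.108). A gene count cannot separate the S34F form from the wild type, so it does not check the labels. By the lane tags, transformed 5 and 8 and parental 1 and 3 were run in lane 6, and the other 4 libraries in lane 7. Transformed 4 and transformed 7 stood apart from the other transformed libraries and from each other, with a chi-square per degree of freedom of 268.5 between them against 18.0 for the closest pair of libraries. Results that rest on them are therefore also given without them.

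Of the 10 members, 9 had enough counts to be tested and 1, Atg12, was called lower in the transformed cells. The threshold was an adjusted p of 0.05 in edgeR, where Benjamini-Hochberg adjustment ran over all 17733 tested genes. By the same rule 2.10% of tested genes were called lower and 0.908% were called higher. edgeR called 0 members higher, with 0 at an unadjusted p of 0.05 in that direction, and DESeq2, which called 4.81% of genes higher, also called 0. The median log2 fold change of the 9 tested members was -0.06, with 7 below 0 and 2 above, and the median over all tested genes was 0.02. As bulk RNA was measured, fewer cells that make a transcript and less RNA per cell cannot be told apart.

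**Figure D1:**
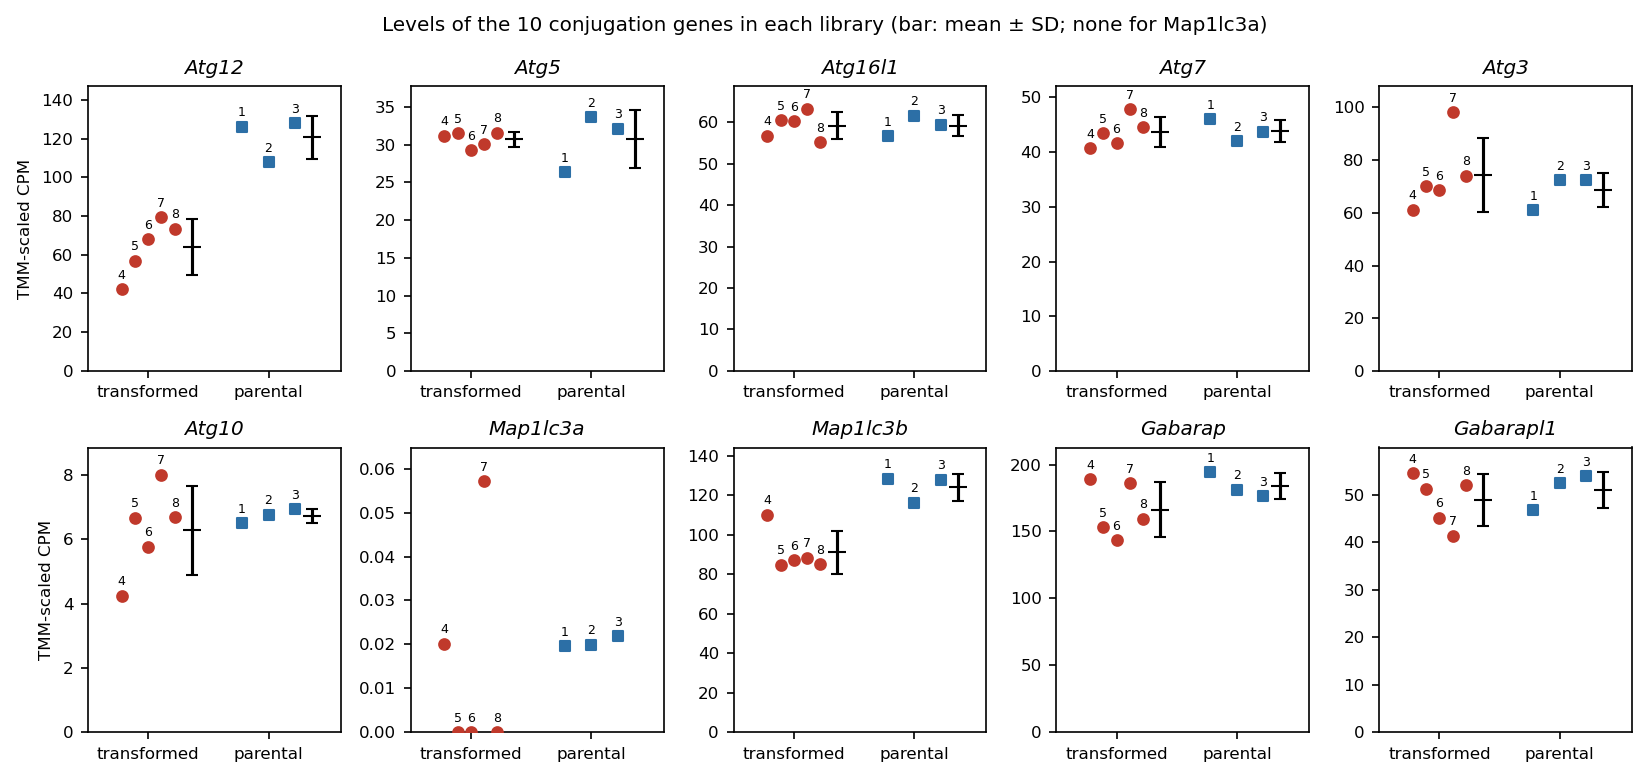
Level of each of the 10 members in each library, in TMM-scaled CPM (vertical axes, linear and starting at 0, with a different top in each panel). Circles are the 5 transformed libraries and squares the 3 parental libraries, each numbered, and bars give the mean ± SD (none is drawn for Map1lc3a). The 5 transformed libraries lie below all parental libraries for Atg12 and Map1lc3b, as they do for 9.69% of all tested genes.

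Atg12 encodes the ubiquitin-like protein of the first system (ENSMUSG00000032905, chromosome 18, 46730144 to 46741580 on GRCm38, minus strand, protein coding). It was at 42.3, 57.0, 68.1, 79.4 and 73.4 CPM (scaled with TMM factors, as are all levels) in transformed 4, 5, 6, 7 and 8, against 126, 108 and 128 CPM in parental 1, 2 and 3. All 5 transformed libraries lay below all 3 parental ones, and the highest transformed library, transformed 7, was still under the lowest parental library, parental 2. The mean was 64.0 ± 14.7 CPM in transformed cells (SD, n = 5) and 121 ± 11.2 CPM in parental cells (SD, n = 3). These levels rest on 2093 to 3470 counts per transformed library and 5394 to 6455 counts per parental library. The log2 fold change was -0.91 (SE 0.18, 95% interval -1.33 to -0.50, edgeR adjusted p = 0.0380). Atg12 was the gene with rank 329 by p among all tested genes, and 479 genes had a log2 fold change as low or lower. In an exact permutation test of the level, 2-sided over all 56 arrangements of the libraries, p was 0.0179, the smallest that 3 against 5 libraries can give, and 0.0804 after Benjamini-Hochberg adjustment over the 9 members tested. No overlap between the groups in this direction was seen for 9.69% of all tested genes.

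Atg12 kept its direction in each of 18 other fits. The fit of lane 7 alone, with 1 parental library, called 0 of 18636 genes (248 higher and 259 lower at an unadjusted p of 0.05), so missing the threshold there says nothing of a gene. Of the other 17 fits, Atg12 passed in 10 and missed in 7. Within lane 6 the log2 fold change was -0.95 (edgeR adjusted p = 0.00687, with 10.8% of genes called lower), and within lane 7 it was -0.78. With lane as a covariate it was -0.88 and missed the threshold (edgeR adjusted p = 0.0868). Without parental 1, 2 or 3 the edgeR adjusted p was 0.124, 0.119 and 0.197, and without transformed 5, 6 or 8 it was 0.0919, 0.0981 and 0.0847. Without transformed 4 and transformed 7 together it was 5.2e-04, at a log2 fold change of -0.87, in a fit that called 16.1% of genes lower. The median log2 fold change of the 371 tested genes on chromosome 18 was 0.04.

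Summed levels of 2 lists of blood-lineage markers also differed between the groups without overlap. The summed level of 5 erythroid and megakaryocyte genes was 173 to 312 CPM in transformed libraries and 400 to 478 CPM in parental libraries, with Itga2b, the integrin chain of platelets, called lower (edgeR adjusted p = 0.0105, missed without parental 2 or 3). That of 7 granulocyte and macrophage genes was 23.6 to 77.7 CPM in transformed libraries and 86.0 to 100.1 CPM in parental libraries, with Cebpe, a transcription factor of granulocytes, called lower (edgeR adjusted p = 0.0415, missed in 7 of those 17 fits). The lack of overlap of each sum rested on the called gene. Klf1 in the first list and Prtn3 in the second, not called by edgeR, also lay lower without overlap, as did 9.69% of all tested genes. DESeq2, which called 5.67% of genes lower, called Klf1 (adjusted p = 0.0405) and missed Prtn3 (adjusted p = 0.142). Without transformed 4 and 7, a fit that called 16.1% of genes lower, edgeR called Klf1 (adjusted p = 0.00320) and Prtn3 (adjusted p = 0.00492). Klf1 was at 5.43 to 32.4 CPM in transformed libraries and 34.85 to 49.1 CPM in parental libraries. Prtn3 was at 1.80 to 13.7 CPM in transformed libraries and 17.4 to 18.35 CPM in parental libraries. Of the tested genes, 4 of 4 in the first list and 3 of 4 in the second had a log2 fold change below 0. Without Itga2b the first sum was 69.2 to 241 CPM in transformed libraries and 188 to 221 CPM in parental libraries, and without Cebpe the second was 6.20 to 39.0 CPM in transformed libraries and 26.3 to 39.1 CPM in parental libraries. The summed level of 7 mast cell and basophil genes was 439 to 1592 CPM in transformed libraries and 714 to 871 CPM in parental libraries. That sum was mostly Gata2, at 360 to 1269 CPM in transformed libraries and 633 to 769 CPM in parental libraries. Cpa3 averaged 53.9 CPM in transformed and 58.8 CPM in parental cells, and Hdc 56.2 and 30.7 CPM. Ms4a2 averaged 3.17 and 4.95 CPM, and Mcpt8 0.750 and 0.583 CPM. Kit and Fcer1a, which define mast cells, had 0 counts in every library. For 5 T cell genes the sum was 0.814 to 3.48 CPM in transformed libraries and 0.180 to 0.943 CPM in parental libraries. The part of these shifts in the change of Atg12 was not tested. The labelled pro-B cell type had few of its own markers: of 13 B-lineage genes, 9 had at most 3 counts in every library, Pax5, Ebf1, Rag2 and Dntt among them, and 3 were tested. The sum of the 13 was mostly Ptprc, a gene of all leukocytes, at 300.5 to 500.5 CPM in transformed libraries and 370 to 455 CPM in parental libraries, and that of the other 12, mostly Cd79a, was 54.3 to 77.6 CPM in transformed libraries and 63.3 to 76.0 CPM in parental libraries.

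No partner of ATG12 in the first system passed the threshold, and for each the group means differed by less than the SD of the transformed libraries. Atg5, the acceptor of ATG12 (ENSMUSG00000038160, chromosome 10, 44268358 to 44364291), was at 31.2, 31.5, 29.3, 30.1 and 31.6 CPM in transformed 4 to 8, against 26.4, 33.7 and 32.1 CPM in parental 1 to 3. The transformed values lay within the range of the parental ones. Its log2 fold change was 0.00 (SE 0.10, 95% interval -0.23 to 0.23, edgeR adjusted p = 0.9995). Atg16l1, which carries the conjugate to the membrane (chromosome 1, 87755870 to 87792428), averaged 59.2 ± 3.22 CPM in transformed cells (SD, n = 5) and 59.2 ± 2.46 CPM in parental cells (SD, n = 3), and its 95% interval was -0.19 to 0.19. Atg10, the carrier of ATG12 (chromosome 13, 90935356 to 91223968), was the lowest of the tested members by CPM, at 4.242 to 7.998 CPM in transformed libraries and 6.49 to 6.93 CPM in parental libraries. Transformed 4 had the lowest Atg10 level and transformed 7 the highest, so the transformed range enclosed the parental one. Its log2 fold change of -0.10 had a 95% interval of -0.53 to 0.32, the widest of the 9 tested members.

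Atg7 and Atg3 serve the ATG8 proteins, and Atg7 serves both systems. Atg7, the activating enzyme (ENSMUSG00000030314, chromosome 6, 114643097 to 114860614), was at 40.7, 43.5, 41.6, 47.9 and 44.6 CPM in transformed 4 to 8, against 46.0, 42.0 and 43.7 CPM in parental 1 to 3. The groups overlapped over most of their range. Its log2 fold change was -0.01, with a 95% interval of -0.21 to 0.19. Atg3, the carrier of ATG8 proteins (ENSMUSG00000022663, chromosome 16, 45158785 to 45188538), was at 61.2, 70.2, 68.5, 98.2 and 74.0 CPM in transformed 4 to 8, against 61.0, 72.3 and 72.4 CPM in parental 1 to 3. Transformed 7 was the highest library, transformed 8 lay just above the parental range, and the other 3 transformed libraries lay within it. Its log2 fold change was 0.12 (95% interval -0.22 to 0.46, edgeR adjusted p = 0.697). The median over the 479 tested genes of chromosome 16 was -0.14.

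**Figure D2:**
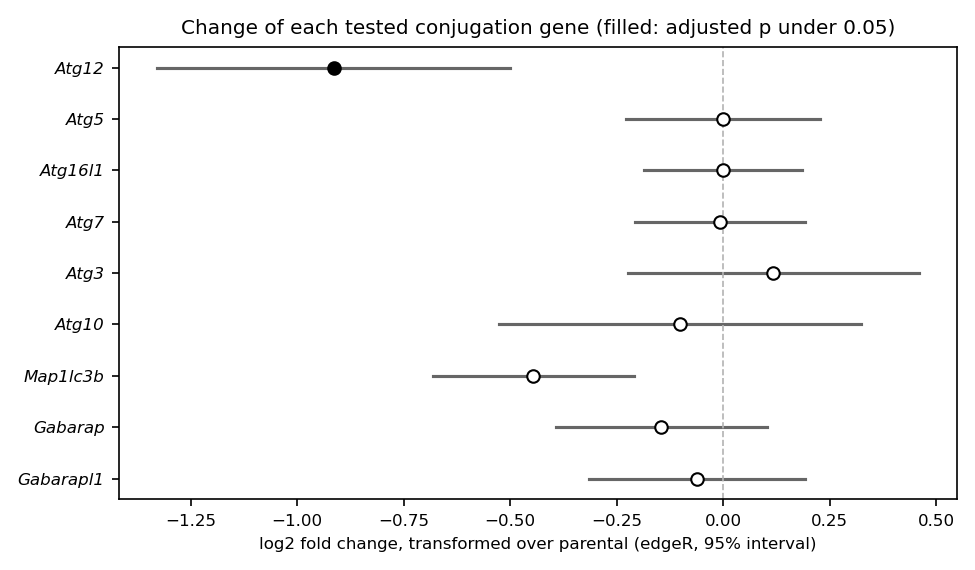
Log2 fold change, transformed over parental, of the 9 tested members (horizontal axis) with the 95% interval from edgeR, not adjusted for the number of genes. The filled point, Atg12 at -0.91, passed the threshold, and the intervals of Atg12 and Map1lc3b do not reach 0.

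Among the ATG8 genes, Map1lc3b showed a difference that did not pass the threshold. Map1lc3b encodes LC3B, the ATG8 protein most used to mark autophagosomes (ENSMUSG00000031812, chromosome 8, 121590361 to 121598760). It was at 110.2, 84.8, 87.2, 88.4 and 85.1 CPM in transformed 4 to 8, against 128, 116 and 128 CPM in parental 1 to 3. All 5 transformed libraries were below all 3 parental ones, as for 9.69% of all tested genes, and transformed 4 was the nearest to them. The mean was 91.2 ± 10.8 CPM in transformed cells (SD, n = 5) and 124 ± 6.82 CPM in parental cells (SD, n = 3). At a log2 fold change of -0.45 (SE 0.10, 95% interval -0.68 to -0.21), Map1lc3b missed the edgeR threshold (adjusted p = 0.0560). It passed that of DESeq2 (adjusted p = 0.00474), which called 5.67% of genes lower. Of the 17 other fits with calls, Map1lc3b passed in 5 and missed in 12. edgeR's adjusted p was 0.00574 in lane 6 alone, where 10.8% of genes were called lower. Leaving out transformed 4 gave 0.00480 (9.26% of genes lower), leaving out transformed 7 gave 0.0437 (4.76%), and leaving out both gave 5.5e-04 (16.1%). With lane as a covariate it was 0.101. Without parental 1, 2 or 3 it was 0.169, 0.138 and 0.2502, and without transformed 5, 6 or 8 it was 0.122, 0.128 and 0.132. In lane 7 alone the log2 fold change was -0.29. The exact permutation test of the level, 2-sided, gave p = 0.0179 (0.0804 adjusted over 9 members) for Map1lc3b, and 0.0571 without transformed 5, 6, 7 or 8. For the 7 tested members other than Atg12 and Map1lc3b, that test gave p between 0.268 and 0.964. The 76 tested genes within 2 Mb of Map1lc3b had a median log2 fold change of -0.21, and its chromosome one of -0.09.

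Gabarap, a second type of ATG8 protein (ENSMUSG00000018567, chromosome 11, 69991143 to 69994951), was at 189, 153, 143, 186 and 160 CPM in transformed 4 to 8, against 194, 181 and 176 CPM in parental 1 to 3. Transformed 4 and transformed 7 were within the parental range, and transformed 5, 6 and 8 were below it. The log2 fold change was -0.15 (95% interval -0.39 to 0.10, edgeR adjusted p = 0.472). Without transformed 4 and transformed 7 it was -0.28 and passed (edgeR adjusted p = 0.0153), in a fit that called 16.1% of genes lower. Gabarap passed in no other fit. Gabarapl1, a close relative of Gabarap (chromosome 6, 129533160 to 129542346), was at 41.3 to 54.6 CPM in transformed libraries and 46.7 to 53.9 CPM in parental libraries, and its log2 fold change was -0.06 (95% interval -0.32 to 0.19). Map1lc3a, which encodes LC3A (chromosome 2, 155276297 to 155278073), had 1, 0, 0, 2 and 0 counts in transformed 4 to 8 and 1 count in each parental library. All 8 values are under the limit of 3 counts that a count of 0 allows, so no fold change is given.

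Levels of different genes were compared per length, as CPM per kilobase of the union of each gene's exons. Gabarap was the highest member, at 90.2 ± 11.1 CPM per kilobase in transformed cells (SD, n = 5) and 99.8 ± 5.07 in parental cells (SD, n = 3). In transformed cells it was followed by Gabarapl1 at 24.3, Atg3 at 23.6, Atg5 at 13.1, Map1lc3b at 12.1, Atg12 at 8.30, Atg7 at 6.26, Atg16l1 at 6.15 and Atg10 at 3.65 CPM per kilobase. In parental cells the order was Gabarapl1 at 25.3, Atg3 at 21.7, Map1lc3b at 16.5, Atg12 at 15.6, Atg5 at 13.1, Atg7 at 6.30, Atg16l1 at 6.15 and Atg10 at 3.91 CPM per kilobase. Atg12 thus stood below Atg5 in the transformed cells and above it in the parental cells, where the ranges of the pair overlapped. In transformed cells the libraries' ranges also overlapped between Gabarapl1 and Atg3, Atg5 and Map1lc3b, Atg12 and Atg7, and Atg7 and Atg16l1. In parental cells they overlapped between Map1lc3b and Atg12, and between Atg7 and Atg16l1. With the longest transcript as the length, Gabarap was again the highest member, but Atg3 came before Gabarapl1, and in transformed cells Atg16l1 came before Atg12. With that length Atg12, at 13.4 CPM per kilobase, was level with Atg5, at 13.1, in transformed cells, and their ranges overlapped.

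Within the ATG8 family, the share of Map1lc3b was lower in the transformed cells. Of the summed level per kilobase of Map1lc3a, Map1lc3b, Gabarap, Gabarapl1 and Gabarapl2, Map1lc3b held 9.53%, 8.80%, 9.63%, 8.20% and 8.55% in transformed 4 to 8, against 10.3% to 11.4% in the 3 parental libraries. The groups did not overlap, nor did they for the Map1lc3b level itself, and no test was made of the shares. Lower levels without overlap were seen for 9.69% of all tested genes, and no such figure was worked out for shares. The percentages depend on the length used. With the longest transcript, Map1lc3b held a mean of 11.9% in transformed cells and 14.4% in parental cells. Gabarap held 66.4% ± 2.43 in transformed cells (SD, n = 5) and 65.8% ± 2.01 in parental cells (SD, n = 3). Gabarapl1 held 18.0% ± 2.22 in transformed cells and 16.7% ± 1.56 in parental cells. Gabarapl2 has 6 annotated copies of at least 90% identity, of which 3 held more than a few reads (Gm3724, Gm5829 and Gm6051, with up to 18.99%, 7.71% and 2.96% of its counts), so its share is uncertain.

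**Figure D3:**
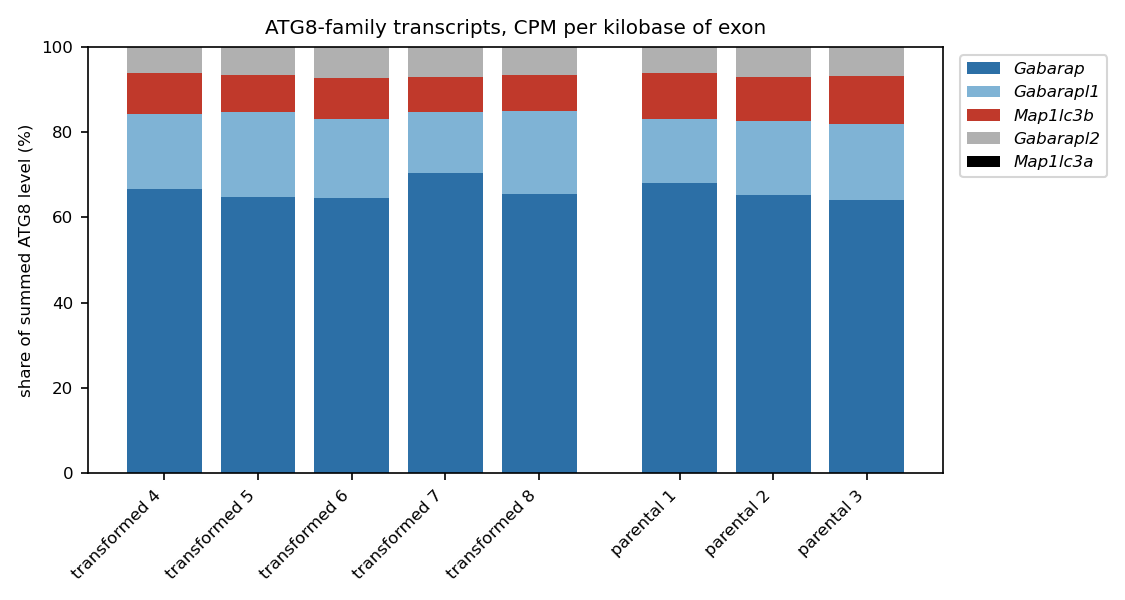
Share of each ATG8 gene in the summed level of the 5 ATG8 genes, in CPM per kilobase of exon (vertical axis, percent), for each of the 5 transformed and 3 parental libraries. Gabarap makes up most of every bar, Map1lc3b is 8.20% to 9.63% in transformed libraries and 10.3% to 11.4% in parental libraries, and Map1lc3a is too low to see.

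The ratio of Atg12 to each other tested member does not depend on a library's scaling factor, and tests whether Atg12 changed unlike its partner. The mean log2 ratio of Atg12 to Atg5 was 1.02 in transformed cells and 1.97 in parental cells, a difference of -0.95. The log2 ratio differed by -0.93 against Atg7, -1.05 against Atg3, -0.81 against Atg10 and -0.94 against Atg16l1. For these 5 partners the exact permutation test, 2-sided, gave p = 0.0179 for each (0.0286 after Benjamini-Hochberg adjustment over 8 ratios). All 8 ratios share the values of Atg12, the 1 member called lower, so they are not separate results. The Atg12 level alone gave the same exact permutation p, and 0.0804 after adjustment over the 9 members tested. The ratio to Gabarap differed by -0.79 (exact permutation p = 0.0357, adjusted 0.0476), and the adjusted value was 0.0653 without transformed 7 and also without transformed 8. The ratio to Gabarapl1 differed by -0.88 (exact permutation p = 0.0536, adjusted 0.0612), and that to Map1lc3b by -0.49 (exact permutation p = 0.107, adjusted 0.107). The groups did not overlap for any of the 8 ratios, nor for the Atg12 level itself. Lower levels without overlap were seen for 9.69% of all tested genes, and no such share was worked out for ratios. The smallest p is limited by the number of libraries: without any 1 parental library no adjusted value was below 0.0762.

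Between the start of Atg12 and that of Ap3s1, which runs the other way, lie 295 bases (Ap3s1: chromosome 18, 46741876 to 46790826, plus strand). It encodes a small subunit of the AP-3 adaptor, which sorts membrane proteins to lysosomes and related organelles. Ap3s1 was at 74.9, 104, 139, 159 and 140.1 CPM in transformed 4 to 8, against 207, 189 and 230 CPM in parental 1 to 3. Its 5 transformed libraries were also all below the parental ones, and stood in the same order as for Atg12, with transformed 4 lowest and transformed 7 highest. Ap3s1 missed the edgeR threshold at a log2 fold change of -0.76 (SE 0.21, adjusted p = 0.0872) and passed that of DESeq2 (adjusted p = 0.0217). The edgeR adjusted p was 0.0241 when transformed 4 was left out, 0.00345 when transformed 7 was left out as well, and 0.0165 in lane 6 alone. Those fits called 9.26%, 16.1% and 10.8% of genes lower. With lane as a covariate it was 0.159, at a log2 fold change of -0.74, and in lane 7 alone the log2 fold change was -0.61. The log2 ratio of Atg12 to Ap3s1 stayed between -1.03 and -0.71 over all 8 libraries, with means of -0.93 in transformed cells and -0.79 in parental cells. Ap3s1 has copies of up to 99.1% identity, the pseudogenes Ap3s1-ps1, Ap3s1-ps2 and Gm17149, with up to 16.48%, 9.46% and 8.34% of its counts, so its own level is uncertain.

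By the measure of likeness, the root mean square difference of centred log2 CPM over the 8 libraries, the 5 genes most like Atg12 among 9105 were Ap3s1-ps2 (0.0967), Ap3s1 (0.0985), Ap3s1-ps1 (0.132), Runx2 (0.169) and Myo1f (0.173). The first 3 share reads or sequence with each other. Runx2, a transcription factor known from bone formation, had a log2 fold change of -0.83 (edgeR adjusted p = 0.108), and Myo1f, a myosin of immune cells, had -1.01 (edgeR adjusted p = 0.00758). Myo1f passed in 16 of the 17 other fits with calls and missed without parental 3. Runx2 and Myo1f were picked for levels like those of Atg12 over these same 8 libraries. Their lower levels in transformed cells follow from that choice and are not separate results. Besides Ap3s1, the nearest tested gene to Atg12 was Cdo1, a cysteine dioxygenase 1749 bases away, at 1.71 ± 0.512 CPM in transformed cells (SD, n = 5) and 2.71 ± 0.443 CPM in parental cells (SD, n = 3), a log2 fold change of -0.67 that missed the threshold (edgeR adjusted p = 0.157). Within 1000 kb of Atg12 there were 11 other tested genes, of which edgeR called 0, 5 had a log2 fold change below 0 and 6 above, and the median was 0.19. Of the 11, Ap3s1 was the one with all transformed libraries below all parental ones, which held for 9.69% of all tested genes.

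**Figure D4:**
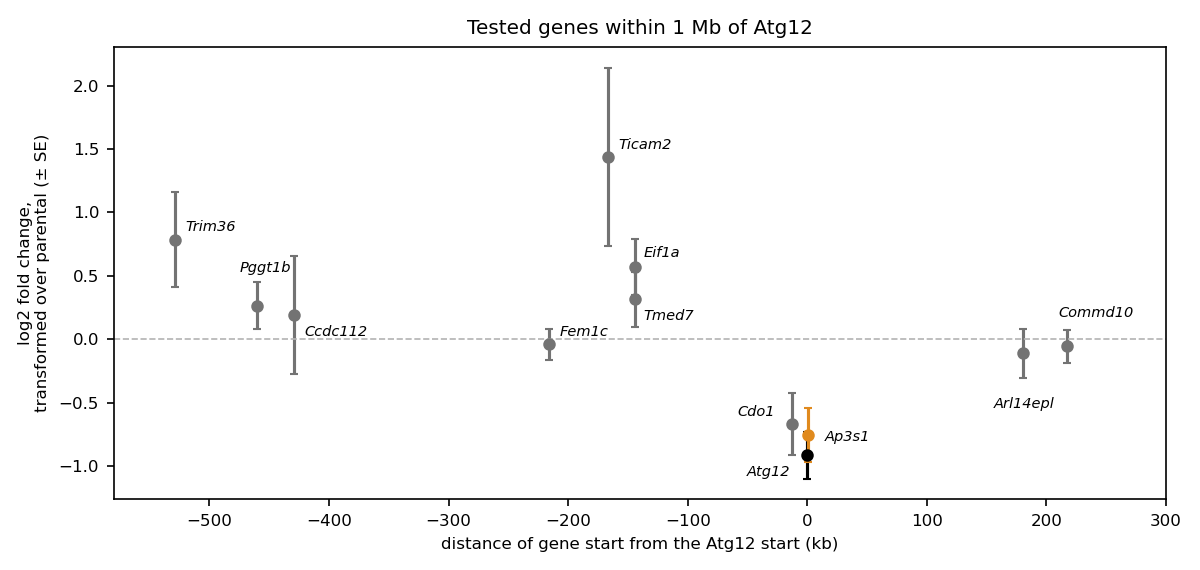
Log2 fold change, transformed over parental, with its SE (vertical axis), of Atg12 (black), Ap3s1 (orange) and 10 other tested genes (grey) by the distance of their start from that of Atg12 in kilobases (horizontal axis). Atg12 at -0.91, Ap3s1 at -0.76 and Cdo1 at -0.67 are the 3 lowest, and the genes farther away lie around or above 0.

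Atg3 has a divergent neighbour too, Slc35a5, a member of the nucleotide sugar transporter family (chromosome 16, 45139573 to 45158706, minus strand), whose start is 78 bases away. Slc35a5 was at 6.24, 5.85, 8.21, 7.83 and 7.42 CPM in transformed 4 to 8, against 11.4, 12.5 and 13.6 CPM in parental 1 to 3. All transformed libraries were below all parental ones, and Slc35a5 fell with a log2 fold change of -0.81 (SE 0.14, edgeR adjusted p = 0.0273) while Atg3 was not called. Slc35a5 missed the threshold in 7 of the 17 other fits with calls: with lane as a covariate, without any 1 parental library and without transformed 5, 6 or 8. The log2 ratio of Atg3 to Slc35a5 was 3.37 in transformed cells and 2.45 in parental cells. Over 607 divergent pairs of protein-coding genes with starts at most 1000 bases apart, both genes lay lower in every transformed library than in every parental one in 26 pairs (4.28%), and at least 1 did in 149 pairs (24.5%).

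**Figure D5:**
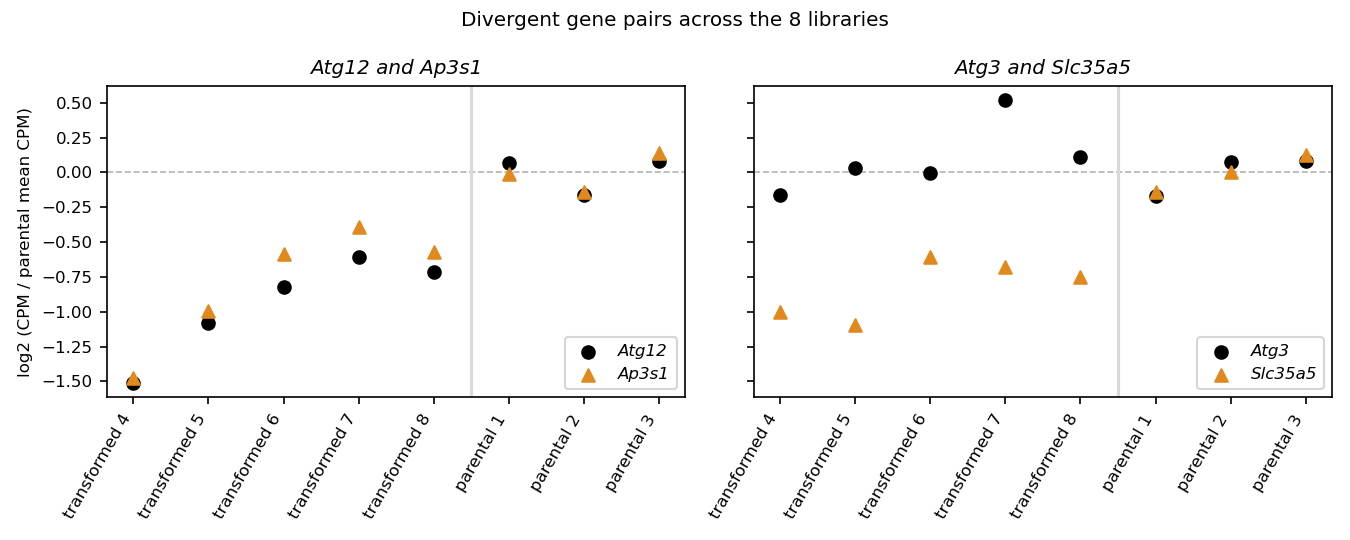
Log2 of the level over the parental mean (vertical axis) of Atg12 with Ap3s1 and of Atg3 with Slc35a5, in each of the 5 transformed and 3 parental libraries. The points of Atg12 and Ap3s1 lie close in every library, whereas Slc35a5 lies below Atg3 in all 5 transformed libraries.

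Atg3 lies in a pair in which 1 gene was called. Map1lc3b lay lower in every transformed library than in every parental one, as did 9.69% of all tested genes. The promoters of Atg3 and Map1lc3b are therefore printed. Both are from RefSeq on GRCm38.p6 and cover 300 bases around the start, on the plus strand, as chr16:45158579-45158878 for Atg3 and chr8:121590188-121590487 for Map1lc3b. Capitals mark the E-box CACGTG, the core letters bound by TFEB and its relatives, and the GC box GGGCGG, read on either strand.
Atg3: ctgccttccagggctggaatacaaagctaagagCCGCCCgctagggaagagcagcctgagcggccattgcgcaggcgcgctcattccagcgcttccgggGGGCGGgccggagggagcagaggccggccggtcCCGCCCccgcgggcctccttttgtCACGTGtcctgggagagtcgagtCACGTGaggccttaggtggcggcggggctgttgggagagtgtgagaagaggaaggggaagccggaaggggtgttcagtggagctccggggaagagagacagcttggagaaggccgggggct
Map1lc3b: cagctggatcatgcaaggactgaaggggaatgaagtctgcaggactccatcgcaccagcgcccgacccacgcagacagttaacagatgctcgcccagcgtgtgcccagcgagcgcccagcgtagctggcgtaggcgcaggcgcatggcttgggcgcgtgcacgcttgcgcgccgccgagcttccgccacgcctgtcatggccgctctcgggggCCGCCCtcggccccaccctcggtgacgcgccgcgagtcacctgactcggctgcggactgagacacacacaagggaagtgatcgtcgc
Atg3 has 2 E-boxes and 3 GC boxes, and Map1lc3b has no E-box and 1 GC box. A RefSeq promoter was found for 7 of the 10 members. The E-box was in 3 of these 7 (Atg3, Atg5 and Atg7) and in 7.15% of 32851 RefSeq promoters of the same length, and the GC box was in 5 of 7 and in 35.7%. The Atg7 window is that of a RefSeq start inside the gene, 27749 bases from its first base in GENCODE, while the other 6 windows hold the GENCODE start. Of those, the Gabarap window (69991120 to 69991419) lies mostly inside the gene, which starts at 69991143 in GENCODE. Such matches are only letters in a window, and say nothing of binding.

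Partners of the same systems outside the 10 members gave 0 calls among 7 genes, and 0 at an unadjusted p of 0.05, with 0 calls in DESeq2. The smallest p among them was that of Atg4a, an ATG8 protease, at 22.8 ± 6.41 CPM in transformed cells (SD, n = 5) and 17.0 ± 1.21 CPM in parental cells (SD, n = 3), with a log2 fold change of 0.42 (edgeR adjusted p = 0.264). Tecpr1, a tether known to bind the ATG12-ATG5 conjugate, had a log2 fold change of -0.36 (edgeR adjusted p = 0.297). Both moved without transformed 4 and 7, a fit that called 16.1% of genes lower and 12.8% higher: Tecpr1 to -0.61 (edgeR adjusted p = 0.00163) and Atg4a to 0.19 (edgeR adjusted p = 0.176). Of 60 tested genes in 7 lists of autophagy genes, these partners included, 0 were called higher and 2 lower, and DESeq2 called 1 higher and 6 lower. Over all tested genes edgeR called 0.908% higher and 2.10% lower, and DESeq2 4.81% higher and 5.67% lower. The median log2 fold change of the 60 was -0.13, with 40 below 0 and 20 above, and over all tested genes 8454 lay below 0 and 9279 above.

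The 2 genes called lower were Ncoa4 and Snap29. Ncoa4, which carries ferritin to autophagosomes, was at 180.0 ± 18.3 CPM in transformed cells (SD, n = 5) and 327 ± 47.7 CPM in parental cells (SD, n = 3), and fell with a log2 fold change of -0.86 (SE 0.12, edgeR adjusted p = 0.0128). It passed in 15 of the 17 other fits with calls, and missed without parental 1 or 3. Snap29, a SNARE protein of fusion with lysosomes, was at 34.5 ± 2.91 CPM in transformed cells (SD, n = 5) and 48.8 ± 6.12 CPM in parental cells (SD, n = 3), and fell with a log2 fold change of -0.50 (SE 0.11, edgeR adjusted p = 0.0482). It passed in 9 of the 17, and missed without any 1 parental library, without transformed 5, 6 or 8, with lane as a covariate and with no filter. Ulk1, the kinase that starts autophagy, missed the edgeR threshold at a log2 fold change of -0.88 (edgeR adjusted p = 0.0829). So did Atg2a, a lipid transfer protein, at -0.68 (edgeR adjusted p = 0.0622), and Tmem41b, a lipid scramblase, at 0.37 (edgeR adjusted p = 0.0715). Each passed in DESeq2, with adjusted p of 0.0123 for Ulk1, 0.00641 for Atg2a and 0.00505 for Tmem41b. DESeq2 called 5.67% of genes lower and 4.81% higher. Among 8 genes of the class III PI3 kinase complexes, which make the lipid that recruits the conjugation machinery, edgeR called 0 (2 at an unadjusted p of 0.05, lower, and 0 in DESeq2). The smallest p there were those of Rubcn, an inhibitor of that kinase, at -0.31 (edgeR adjusted p = 0.127) and Atg14, its autophagy subunit, at -0.52 (edgeR adjusted p = 0.191). Of the transcription factors of autophagy genes, 4 of 5 were tested and edgeR called 0, with 0 at an unadjusted p of 0.05 and 0 in DESeq2. Mitf was at -0.37 (edgeR adjusted p = 0.386) and Tfeb at -0.27 (edgeR adjusted p = 0.469). Without transformed 4 and 7 Mitf was at -0.71 (edgeR adjusted p = 0.00114) and Tfeb at -0.11 (edgeR adjusted p = 0.399), and Ulk1, Atg2a, Tmem41b, Rubcn and Atg14 also passed, with edgeR adjusted p of 2.7e-04, 3.1e-04, 0.00766, 0.0258 and 0.00179. For the other ubiquitin-like systems, such as SUMO, NEDD8 and UFM1, 18 genes gave 0 calls in edgeR (4 higher and 2 lower at an unadjusted p of 0.05, and 3 higher and 1 lower in DESeq2), with a median log2 fold change of 0.09. Uba7, which activates ISG15, had the smallest p there at -0.77 (edgeR adjusted p = 0.0563), followed by Ube2m, a carrier of NEDD8, at 0.29 (edgeR adjusted p = 0.0643). Both passed in DESeq2 (adjusted p = 0.00334 for Uba7 and 0.00125 for Ube2m). Without transformed 4 and 7 both passed in edgeR (adjusted p = 0.0451 for Uba7 and 0.00979 for Ube2m).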

How the data were processed

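Read counts per gene were deposited by the authors as 1 table of 53465 Ensembl genes and 8 libraries. Alignment with STAR 2.5.3a and counting with featureCounts 1.5.3, on builds given as mm10 or GRCm38.p5, are taken from the submitters' processing notes. The sources used here give no strand setting, no handling of multiply mapping reads and no annotation release. The values are raw counts, and 0 columns lay outside the libraries. Names and positions came from GENCODE M21 (GRCm38), with 105 genes unmatched (0.0212% of counts).

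Counts were filtered with filterByExpr (17733 genes), scaled with TMM factors and tested in R 4.3.3 with edgeR 4.0.16 (robust quasi-likelihood, 2-sided, no covariate, Benjamini-Hochberg over all tested genes, threshold 0.05). The common biological coefficient of variation was 0.23. Levels are TMM-scaled CPM, and log2 CPM used a prior count of 2. The code was tested on simulated data. Intervals and count limits cover counting error or spread between libraries only. Groups and libraries followed the titles, and lanes the descriptions.

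The members and lists were chosen with earlier results of these data known. Named genes were the members, the called genes of each list or else those of smallest p, the nearest tested genes of a called member and the 5 most like it (average log2 CPM of at least 3). Slc35a5, the named marker genes and the count of divergent pairs were chosen after their values were seen. Alternatives were DESeq2 1.42.0, limma-voom (limma 3.58.1), factors by RLE or the upper quartile, no filter on counts, a filter keeping genes with CPM 1 in 3 libraries, a lane term, either lane by itself, and libraries left out. Map1lc3a had too few counts for a test or a ratio, so 8 ratios were tested. Protein sequences were not used here.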

Additional observations from a re-analysis of the deposited data

Results flagged for a closer look

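Of the 9 tested members, each with 5 transformed libraries, 1 had a library that stood far from the others. Map1lc3b was at 110.2 CPM in transformed 4, against 84.8 to 88.4 CPM in the other 4 transformed libraries, and the gap to the nearest of them was 0.843 of the whole range on the log2 scale. Dixon's rule marks about 1 in 20 groups by chance. Without transformed 4, Map1lc3b passed the threshold in edgeR (adjusted p = 0.00480, log2 fold change -0.52), in a fit that called 9.26% of genes lower.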

How the results depend on the processing

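Atg12 kept its direction in 18 of 18 fits (log2 fold change -1.003 to -0.776). Of the 17 fits other than that of lane 7 alone (-0.78), which called 0 genes, it missed the threshold in 7, with lane as a covariate (-0.88) among them. Without single libraries its log2 fold change was -1.003 to -0.798 (edgeR adjusted p 0.00711 to 0.197). The cause was not tested.

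Members called lower numbered 1 in the main analysis, 2 in DESeq2, 2 in lane 6 alone, 0 in lane 7 alone, 0 with lane as a covariate, 3 without transformed 4 and 7, and 0 to 2 without single libraries. All tested genes called higher and lower numbered 161 and 372, against 850 and 1001 in DESeq2, 1682 and 1883 in lane 6, 0 and 0 in lane 7 (edgeR, 248 and 259 at an unadjusted p of 0.05), 15 and 79 with lane as a covariate, 2238 and 2804 without transformed 4 and 7, and 3 to 1100 and 21 to 1628 without single libraries. Other autophagy genes called higher and lower numbered 0 and 2, against 1 and 6 in DESeq2, 0 and 19 in lane 6, 0 and 0 in lane 7, 0 and 1 with lane as a covariate, 0 and 1 with no filter, 1 and 21 without transformed 4 and 7, and 0 to 1 and 0 to 13 without single libraries.

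Members near 0 changed sign without being called. Atg16l1 was at 0.0057 with RLE factors (exact permutation p = 0.929), 0.0054 in DESeq2, 0.0016 with the CPM filter and 0.0090 in lane 6. Atg5 was at -0.0030 with upper-quartile factors, -0.0100 with no filter, -0.0069 with lane as a covariate and -0.16 in lane 7. Atg7 was at 0.0052 with lane as a covariate and 0.0432 in lane 7, and in lane 6 Atg10 was at 0.0069 and Gabarapl1 at 0.0517. Without single libraries Atg5 ran from -0.0917 to 0.0801 (exact permutation p 0.0952 to 1), Atg7 from -0.043 to 0.0346 (0.40 to 0.952), Atg3 from -0.0018 to 0.18 (0.486 to 1), Atg10 from -0.20 to 0.0098 (0.257 to 1) and Atg16l1 from -0.025 to 0.0372 (0.629 to 0.952).

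No paired analysis was possible because the groups share no replicate numbers. Map1lc3a, at 0 to 2 counts, could not be tested at this depth.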
